A study of Mus musculus with 9 samples.

Results

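Amino acid transporter transcripts were followed in 9 mouse liver libraries by RNA sequencing. The genes were all those of the solute carrier families Slc1, Slc3, Slc6, Slc7, Slc36, Slc38 and Slc43 listed in the deposited tables, matched by gene symbol. They numbered 42 of 17046 genes, of which 41 were in the table of ethanol feeding, 38 in the table of Mettl3 overexpression and 37 in both. All mice were wild type and had received an adeno-associated virus of serotype 8, injected into the tail vein, in which the TBG promoter drives expression in hepatocytes. The control virus carried an empty cloning site with a 3×FLAG tag (MCS-3×FLAG), and the other carried Mettl3-3×FLAG, which encodes the catalytic subunit of the m6A RNA methyltransferase. Starting 3 weeks after injection, the mice ate a control or an ethanol diet for 10 days and then received a single binge of maltose or ethanol.

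The 3 groups held 3 libraries each: pair-fed livers with the control virus, ethanol-fed livers with the control virus, and ethanol-fed livers with the Mettl3 virus, called Mettl3 livers here. No virus stands in the sample titles, which give WT or Mettl3OE and the diet, so the virus of the WT groups comes from the study's design text. No label gives age, sex or a batch, and none says that replicates were separate animals, so p-values measure only the spread between these libraries, which may be technical. A pair-fed group with the Mettl3 virus was not analysed here. In whole liver, fewer cells of a type and less RNA per cell cannot be told apart.

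Hepatocytes take up most of the amino acids that reach the liver in portal blood and use them for gluconeogenesis, urea and protein synthesis. The Slc38 family carries small neutral amino acids and glutamine with sodium, Slc7 carries cationic and large neutral amino acids, often as a light chain bound to an Slc3 heavy chain, and Slc1 carries glutamate and neutral amino acids. Slc6 members take up taurine, betaine, GABA, glycine or creatine, Slc36 carries amino acids with protons, in part out of lysosomes, and Slc43 facilitates the passage of large neutral amino acids. Several names in this group do not carry the usual amino acids: Slc6a4 carries serotonin, Slc6a8 creatine, and Slc43a3 purine nucleobases.

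Levels are given in FPKM, which scales reads to the length of the gene and the depth of its library, so that levels of different genes can be set beside each other. Recovered read totals over the listed genes were between 34656480 and 38159563 per library. Mettl3 itself was at 3.97, 3.10 and 3.38 FPKM in the pair-fed livers, 5.44, 4.86 and 3.78 in the ethanol-fed livers, and 38.5, 24.98 and 33.3 in the Mettl3 livers, where the reads of the virus and of the endogenous gene cannot be told apart. Hepatocyte markers were high in every library, with albumin (Alb) at 30108 FPKM or more, while Elane (neutrophil), Cftr (cholangiocyte), and Cd8a and Ncr1 (T and NK cell) stayed at or below 0.261 FPKM. The 10 hepatocyte markers summed to 60000.2 to 64536.4 FPKM in pair-fed, 46785.1 to 63422.5 in ethanol-fed and 41267.9 to 50220.6 in Mettl3 livers. By limma 3 were higher and 1 lower with ethanol, and 2 were higher and 2 lower in Mettl3 against pair-fed livers. Of all genes, 10.0% and 13.9% were higher in these comparisons. Of the Kupffer cell markers 8 of 10 were lower in ethanol-fed than pair-fed livers by limma (summed level 170 to 251 against 311 to 354 FPKM), and of the sinusoidal endothelial markers 7 of 9 were lower and 1 higher (104 to 117 against 143 to 160.03 FPKM), where 26.0% of all genes were lower. With median-ratio scaling, which divides each library by the median ratio of its genes, 7 Kupffer cell markers were lower, and 4 endothelial markers were lower and 2 higher. In Mettl3 against pair-fed livers 9 of 10 Kupffer cell, 5 of 9 endothelial and 5 of 10 stellate cell markers were lower and 0, 1 and 1 higher, where 34.9% of all genes were lower; with median-ratio scaling 6, 4 and 3 were lower and 1, 2 and 1 higher. Neutrophil markers summed to 7.56 to 11.7 FPKM in pair-fed, 9.36 to 75.8 in ethanol-fed and 49.4 to 107 in Mettl3 livers. The part of these cells in the transporter results was not tested.

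The transporter transcripts were dominated by 2 genes of the Slc38 family. Slc38a3 and Slc38a4 were the only members with a mean over the libraries of at least 100 FPKM, and together they made up 66.3% of the summed transporter level in pair-fed livers, 59.5% in ethanol-fed and 58.1% in Mettl3 livers. A further 9 members averaged 10 to 100 FPKM (Slc38a2, Slc6a13, Slc7a2, Slc3a1, Slc38a10, Slc6a12, Slc1a2, Slc43a3 and Slc6a6, in falling order), 11 averaged 1 to 10, and 20 were below 1, of which 11 were below 0.1. Neighbours in that order often did not differ beyond their spread: Slc7a2, at 17.6 to 78.4 FPKM over the 9 libraries, overlapped with both Slc38a2 (30.1 to 87.0) and Slc3a1 (23.3 to 62.6).

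**Figure D1:**
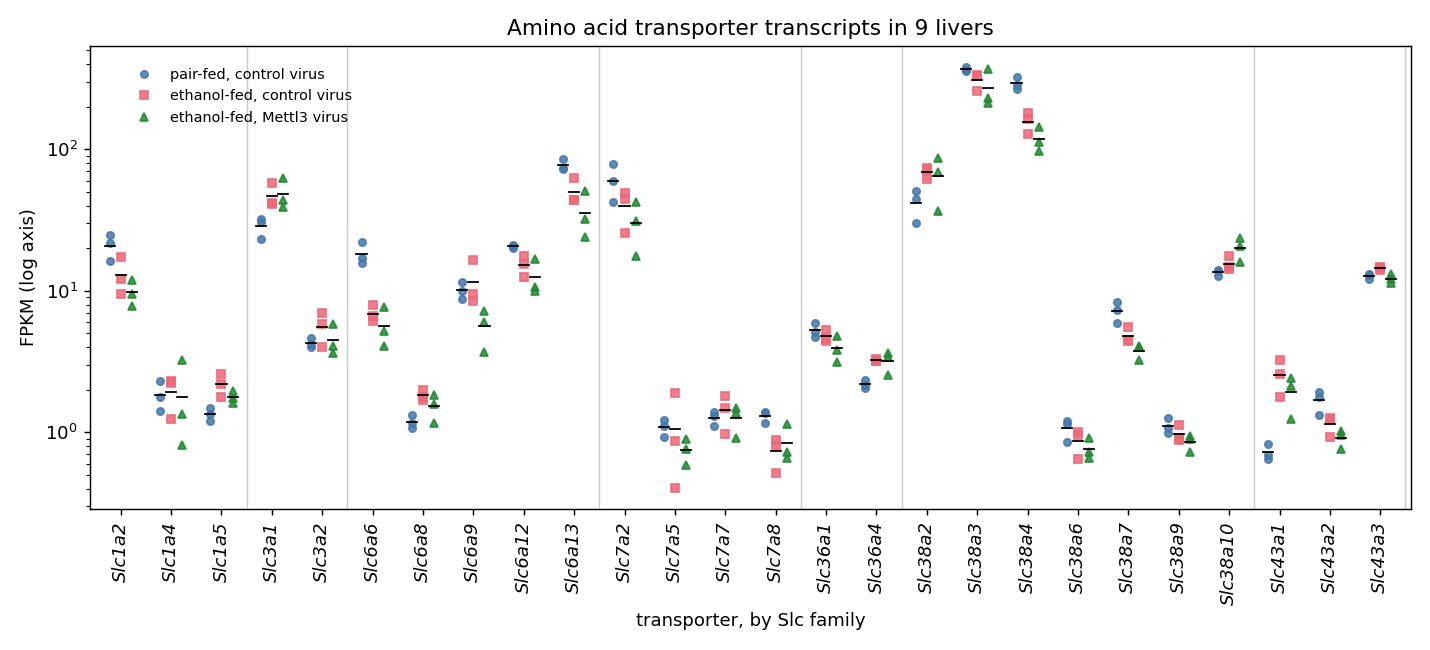
FPKM on a log axis of the 26 transporters that were tested in at least 1 comparison, ordered by Slc family, with 1 point per library and a bar at each group mean. Slc38a3 and Slc38a4 stand above all others in each group, and most members lie between 1 and 100 FPKM.

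The summed level of all transporters was 929, 997 and 1070.3 FPKM in the pair-fed livers, 836, 745 and 761 in the ethanol-fed livers, and 628, 549 and 809 in the Mettl3 livers. All ethanol-fed and Mettl3 livers lay below all pair-fed livers, and Mettl3 liver 3 lay within the range of the ethanol-fed livers. The Slc38 sum was 727 ± 39.1 FPKM in pair-fed, 555 ± 22.2 in ethanol-fed and 479 ± 83.9 in Mettl3 livers (SD, n = 3 each), between 71.2% and 72.8% of the total in each group. The Slc3 sum had the other direction, at 33.0 ± 4.97, 52.4 ± 8.18 and 53.2 ± 13.5 FPKM in the same order. The Slc6 sum was 128 ± 11.7, 85.7 ± 18.6 and 61.2 ± 20.4 FPKM, and the Slc36 sum was 7.44 ± 0.624, 7.99 ± 0.445 and 7.11 ± 0.506. These sums are descriptions and were not tested.

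**Figure D2:**
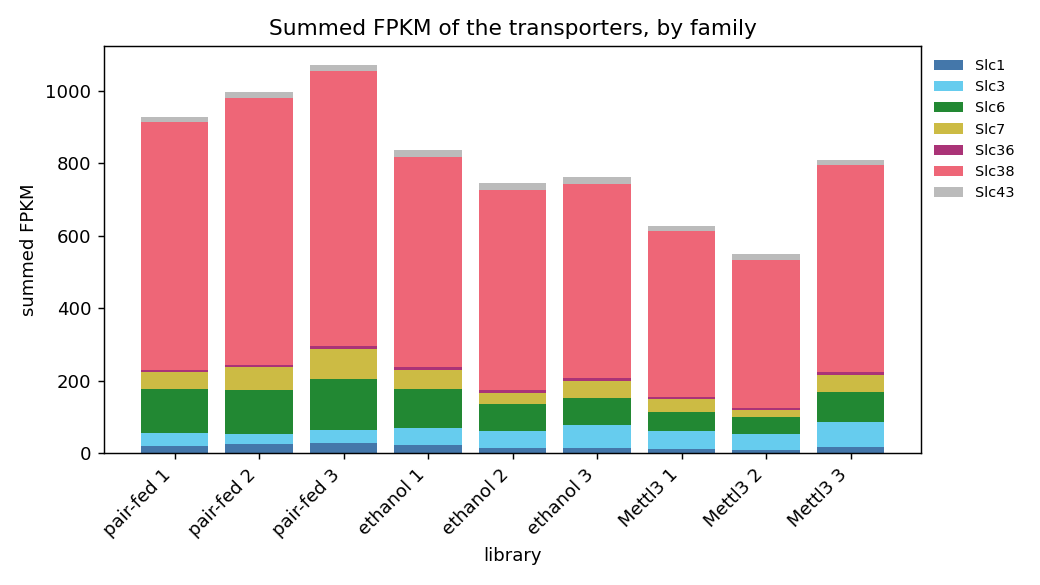
Summed FPKM of the transporters in each library, stacked by Slc family; each bar starts at 0. The Slc38 family makes up most of every bar, and the 3 pair-fed bars are the tallest.

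Ethanol feeding with the control virus was compared with pair feeding first. Of the 42 transporters, 26 were tested (FPKM of at least 1 in at least 3 of the 6 libraries), 15 lay under that filter and 1 was not in the table. Of those tested, 6 rose (Slc1a5, Slc3a1, Slc6a8, Slc36a4, Slc38a2 and Slc43a1), 6 fell (Slc6a6, Slc6a12, Slc6a13, Slc7a8, Slc38a4 and Slc38a7) and 14 did not pass limma's test at a Benjamini-Hochberg adjusted p below 0.05. Of all 10064 genes tested, 36.0% were called, 10.0% higher and 26.0% lower. For the transporters these shares were 23.1% each, so the share that fell was near that of all genes, and the share that rose was above it; that difference was not tested. The groups did not overlap for 8 transporters in the higher and 8 in the lower direction, against 15.4% and 37.2% of all genes (52.6% in either direction). Slc43a1 and Slc7a8, which are in these counts, passed the filter only through the group where they were higher.

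The median log2 fold change was -0.09 for the transporters and -0.14 for all genes. With median-ratio scaling, which moved the median of all genes by 0.14 to 0.00, the calls became 8 higher and 4 lower among transporters and 17.2% higher and 17.7% lower among all genes. The calls among all genes split into 1009 higher and 2616 lower on the FPKM scale and into 1729 and 1783 after that scaling. Single libraries weighed on the count: the higher and lower calls were 2 and 2 when pair-fed liver 2 was left out, 3 and 2 for pair-fed liver 3, 3 and 3 for ethanol-fed liver 2, and 4 and 2 for ethanol-fed liver 3. Of the 12 calls, those of Slc6a6 and Slc38a4 held in all 6 fits with a library left out. Slc43a1 held in the 3 fits without a pair-fed liver and fell under the filter in the others.

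A fit of all 9 libraries compared Mettl3 livers with pair-fed ones. This comparison differs from the first in diet and virus together and shares its pair-fed livers, so the results are given side by side and are not independent. Of 26 transporters tested, 4 were higher (Slc3a1, Slc36a4, Slc38a10 and Slc43a1), 9 were lower (Slc1a2, Slc6a6, Slc6a9, Slc6a12, Slc6a13, Slc7a2, Slc38a4, Slc38a7 and Slc43a2) and 13 did not pass. Among all 10229 genes tested, 48.8% were called, 13.9% higher and 34.9% lower. The transporters, at 15.4% and 34.6%, were near those shares, and their groups did not overlap for 5 higher and 12 lower members, against 19.3% and 44.2% of all genes (63.6% in either direction). Slc43a1, which is in these counts, passed the filter of this fit only through the ethanol-fed and Mettl3 livers. The median log2 fold change was -0.24 for transporters and -0.18 for all genes. With median-ratio scaling, which moved the median of all genes to 0.00, the calls were 6 higher and 7 lower for transporters, against 23.3% and 23.8% of all genes (2380 higher and 2436 lower, in place of 1424 and 3572). The higher calls numbered 2 when pair-fed liver 3, Mettl3 liver 1 or Mettl3 liver 2 was left out. In all, 17 transporters passed in at least 1 comparison, and 8 passed in both comparisons with pair-fed livers.

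**Figure D3:**
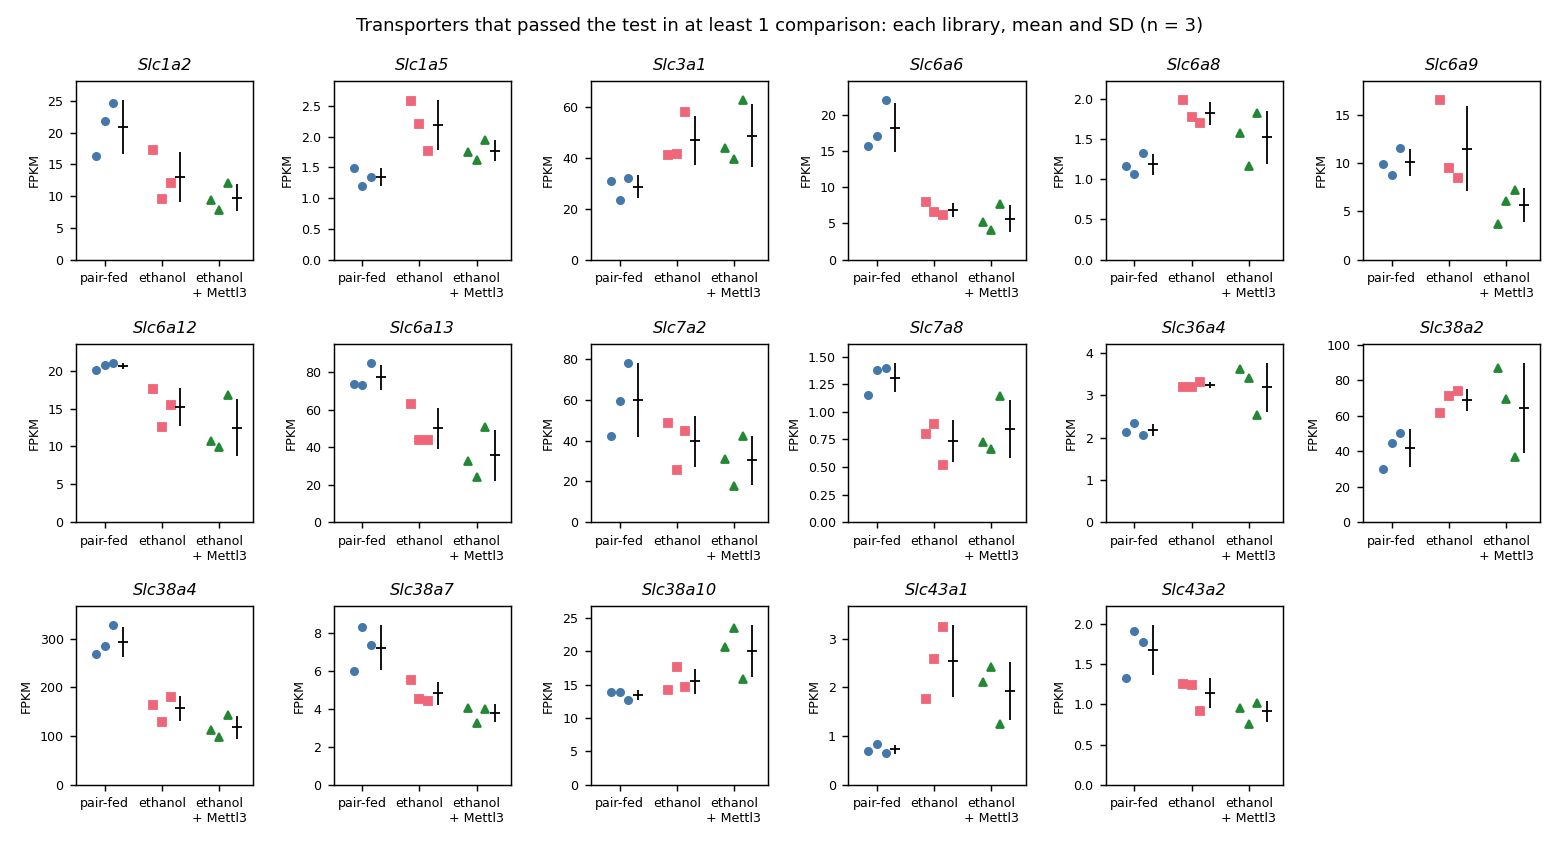
FPKM of the 17 transporters that passed limma's test in at least 1 comparison, on linear axes from 0, with 1 point per library (1 to 3 from left to right in each group) and the mean ± SD. Slc6a6 and Slc38a4 in the pair-fed livers lie above both ethanol-fed groups without overlap, and Slc43a1 lies below both.

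Of the Slc38 family, 7 of 10 members were tested. Slc38a4 carries small neutral amino acids with sodium and is made chiefly in liver (Entrez 69354; chromosome 15, 96994816 to 97055956, GRCm38 as all coordinates here). The pair-fed livers had 268, 284 and 327 FPKM, the ethanol-fed livers 163, 129 and 179.7, and the Mettl3 livers 113, 97.9 and 143. Both ethanol-fed groups lay below all pair-fed livers, while they overlapped with each other. In limma it fell by 0.90 on the log2 scale with ethanol (SE 0.15, adjusted p 0.00468), and against pair-fed livers it was lower in Mettl3 livers by a log2 fold change of -1.32 (SE 0.17, adjusted p 0.000906). Both calls held with each library left out in turn.

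Slc38a2, the sodium-coupled carrier of small neutral amino acids that cells adjust to amino acid supply, went the other way (Entrez 67760; chromosome 15, 96687392 to 96699728). Its levels were 30.1, 44.7 and 50.5 FPKM with pair feeding, 61.6, 71.0 and 73.9 with ethanol, and 87.0, 69.3 and 36.7 with ethanol and the Mettl3 virus. Each ethanol-fed liver exceeded every pair-fed one, and Mettl3 liver 3 alone of its group lay among the pair-fed values. It rose by 0.74 on the log2 scale with ethanol in limma (SE 0.19, adjusted p 0.0222), and significance was lost without pair-fed liver 2 (adjusted p 0.0556), ethanol-fed liver 2 (0.0615) or ethanol-fed liver 3 (0.0694) and in the fit of all 9 libraries (0.0836, range over all settings tried 0.0149 to 0.0836). Mettl3 livers differed from pair-fed livers by 0.56 (SE 0.30), which did not pass in limma (adjusted p 0.145) and passed without Mettl3 liver 3 (0.91, adjusted p 0.00638, range over all settings tried 0.00638 to 0.438). Slc38a2 and Slc38a4 are neighbours on chromosome 15, 295087 bases apart, with Slc38a1 43953 bases from Slc38a2 on its other side. Slc38a1 was at 0.157 to 0.397 FPKM and was not tested.

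The promoters of this pair are shown because the genes lie side by side and passed in opposite directions. The 250 bases before the first listed start of each, written 5′ to 3′ on the gene's strand (RefSeq, GRCm38.p6), were chr15:96699729-96699978, minus strand, for Slc38a2 and chr15:97055957-97056206, minus strand, for Slc38a4. Capitals mark matches, on either strand, to the amino acid response element core TGATGNAA, the CCAAT box (CCAAT) and the GC box (GGGCGG).
Slc38a2: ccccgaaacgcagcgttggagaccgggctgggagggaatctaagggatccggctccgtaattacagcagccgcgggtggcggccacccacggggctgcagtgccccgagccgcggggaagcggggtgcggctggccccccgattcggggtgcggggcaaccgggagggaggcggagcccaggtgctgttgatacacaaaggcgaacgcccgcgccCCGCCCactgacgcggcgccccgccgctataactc
Slc38a4: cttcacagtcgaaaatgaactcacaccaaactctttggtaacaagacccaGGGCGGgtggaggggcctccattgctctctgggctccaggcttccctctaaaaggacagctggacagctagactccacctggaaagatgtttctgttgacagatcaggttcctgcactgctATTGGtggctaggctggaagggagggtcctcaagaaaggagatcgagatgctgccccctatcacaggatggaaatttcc
The Slc38a2 stretch was 72.0% G or C and the Slc38a4 stretch 52.8%, beside a median of 52.4% over all listed starts. A GC box match began 35 bases before the start of Slc38a2. In Slc38a4 a GC box match began 200 bases and a CCAAT match 79 bases before the start. Such matches are common: among 32851 listed mouse starts, 32.74% held a GC box and 33.85% a CCAAT box, and a match is a description of letters only.

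Slc38a3, the glutamine, asparagine and histidine carrier of hepatocytes, was the most abundant transporter (Entrez 76257; chromosome 9, 107651154 to 107668968). Pair feeding gave 363, 382 and 360.2 FPKM, ethanol gave 333, 328 and 261, and ethanol with the Mettl3 virus gave 229, 213 and 369. The ethanol-fed livers lay below all pair-fed livers, and in the Mettl3 group liver 3 alone lay within the pair-fed range. Neither difference passed in limma, at -0.27 for ethanol (SE 0.12, adjusted p 0.114) and -0.49 for Mettl3 livers against pair-fed livers (SE 0.20, adjusted p 0.0665). The latter was -0.74 with adjusted p 0.00159 without Mettl3 liver 3, in a range of adjusted p from 0.00159 to 0.223 over all settings tried.

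Slc38a7 exports glutamine from lysosomes (Entrez 234595; chromosome 8, 95835920 to 95853577). Per library, FPKM was 5.96, 8.30 and 7.35 after pair feeding, 5.51, 4.51 and 4.42 after ethanol, and 4.06, 3.25 and 4.00 in the Mettl3 livers. The 3 groups followed each other without any overlap, pair-fed highest and Mettl3 lowest. In limma it fell by 0.49 with ethanol (log2, SE 0.14, adjusted p 0.0291) and was lower in Mettl3 than in pair-fed livers, at -0.78 (SE 0.13, adjusted p 0.00245). The ethanol call was lost with median-ratio scaling (-0.34, adjusted p 0.0618) and without pair-fed liver 2 or 3 or ethanol-fed liver 2 or 3 (adjusted p 0.0793 to 0.114, range over all settings tried 0.0125 to 0.114), while the call in Mettl3 livers held with each library left out.

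Slc38a10 was the tested member of the family with its highest mean level in Mettl3 livers (Entrez 72055; chromosome 11, 120103951 to 120151351). The pair-fed livers had 13.9, 13.9 and 12.6 FPKM, the ethanol-fed livers 14.2, 17.6 and 14.7, and the Mettl3 livers 20.6, 23.5 and 15.9. Mettl3 livers lay above all pair-fed livers and passed in limma (log2 fold change 0.52, SE 0.14, adjusted p 0.0166). Ethanol alone gave 0.18 (SE 0.11), which did not pass (adjusted p 0.229). The call in Mettl3 livers was lost without pair-fed liver 3, Mettl3 liver 1 or Mettl3 liver 2 (adjusted p 0.0572 to 0.0628, range over all settings tried 0.00202 to 0.0628). Slc38a9, a lysosomal arginine sensor for mTORC1, and Slc38a6 were at 0.721 to 1.25 and 0.644 to 1.21 FPKM and passed in neither comparison. Slc38a6 overlaps Trmt5, and with no strand setting stated their reads may be shared.

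Among the Slc6 members 5 of 11 were tested. Slc6a6, the taurine transporter, had the lowest log2 fold change of the tested transporters in both comparisons with pair-fed livers (Entrez 21366; chromosome 6, 91684048 to 91759063). Its levels were 15.6, 17.0 and 22.01 FPKM with pair feeding, 7.95, 6.59 and 6.10 with ethanol, and 5.18, 4.06 and 7.72 with ethanol and the Mettl3 virus. All pair-fed values lay well above all others. It fell by 1.28 on the log2 scale with ethanol in limma (SE 0.15, adjusted p 0.00187) and was lower in Mettl3 than in pair-fed livers, at -1.55 (SE 0.20, adjusted p 0.000956). Both calls held with each library left out and under each other setting tried.

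Slc6a13, which carries GABA and taurine into hepatocytes, was the most abundant Slc6 member (Entrez 14412; chromosome 6, 121300288 to 121337721). Pair feeding gave 73.8, 72.8 and 84.95 FPKM, ethanol gave 62.7, 43.7 and 43.7, and ethanol with the Mettl3 virus gave 32.3, 24.1 and 50.5. The pair-fed livers lay above all others, and the ethanol-fed and Mettl3 groups overlapped through Mettl3 liver 3. In limma it fell by 0.63 with ethanol (log2, SE 0.16, adjusted p 0.0197) and was lower in Mettl3 than in pair-fed livers by a log2 fold change of -1.15 (SE 0.25, adjusted p 0.00537). The ethanol call held without ethanol-fed liver 1 and was lost without any other single library (adjusted p 0.0517 to 0.0799) and in the fit of all 9 libraries (0.0748, range over all settings tried 0.00121 to 0.0799).

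Slc6a12, the betaine and GABA transporter, lies 4852 bases from Slc6a13 (Entrez 14411; chromosome 6, 121342574 to 121365773). Per library, FPKM was 20.1, 20.7 and 20.9 after pair feeding, 17.6, 12.6 and 15.4 after ethanol, and 10.7, 9.91 and 16.8 in the Mettl3 livers. All pair-fed livers lay above all others. In limma it fell by 0.43 with ethanol (log2, SE 0.13, adjusted p 0.0356) and was lower in Mettl3 than in pair-fed livers, at -0.72 (SE 0.18, adjusted p 0.0119). The ethanol call was lost with median-ratio scaling (-0.26, adjusted p 0.118), without the filter (adjusted p 0.0551), in the fit of all 9 libraries (adjusted p 0.101) and without any single library other than ethanol-fed liver 1 (adjusted p 0.0715 to 0.114, range over all settings tried 0.00708 to 0.118).

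The promoter of Slc6a13 is shown as that of the more abundant gene of this adjacent pair, which fell together. It is chr6:121300038-121300287, plus strand, before the first of 3 listed starts (RefSeq, GRCm38.p6), with capitals as above.
Slc6a13: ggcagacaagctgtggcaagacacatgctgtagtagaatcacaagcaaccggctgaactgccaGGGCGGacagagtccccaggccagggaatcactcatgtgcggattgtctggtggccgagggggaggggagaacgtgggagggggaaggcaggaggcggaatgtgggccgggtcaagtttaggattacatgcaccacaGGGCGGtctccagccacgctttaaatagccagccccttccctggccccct
GC box matches began 187 and 50 bases before this start, and 60.8% of the stretch was G or C.

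Slc6a8, the creatine transporter, was a low transcript that rose with ethanol (Entrez 102857; chromosome X, 73673133 to 73682502). The pair-fed livers had 1.17, 1.07 and 1.32 FPKM, the ethanol-fed livers 1.99, 1.77 and 1.70, and the Mettl3 livers 1.58, 1.17 and 1.82. Each ethanol-fed liver exceeded every pair-fed liver, while Mettl3 livers overlapped with both groups. The log2 fold change with ethanol was 0.37 in limma (SE 0.09, adjusted p 0.0217), and significance was lost without pair-fed liver 1, 2 or 3 (adjusted p 0.0534 to 0.104, range over all settings tried 0.00652 to 0.104). Mettl3 livers did not pass against pair-fed livers in limma at 0.20 (SE 0.11, adjusted p 0.167), and passed with median-ratio scaling (0.33, adjusted p 0.0202, range over all settings tried 0.0202 to 0.414).

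Slc6a9, the glycine transporter GlyT1, passed in Mettl3 livers against pair-fed livers alone (Entrez 14664; chromosome 4, 117835258 to 117869305). Its levels were 9.92, 8.82 and 11.6 FPKM with pair feeding, 16.6, 9.48 and 8.50 with ethanol, and 3.71, 6.06 and 7.18 with ethanol and the Mettl3 virus. Ethanol-fed and pair-fed livers overlapped, and all Mettl3 livers lay below all livers of both other groups. Ethanol alone gave a log2 fold change of 0.13 in limma (SE 0.23, adjusted p 0.692). Mettl3 livers were lower than pair-fed livers, at -0.77 (SE 0.26, adjusted p 0.0360). That call was lost with median-ratio scaling (-0.57, adjusted p 0.0707), without the filter (adjusted p 0.0504), and without any 1 of the pair-fed livers or Mettl3 liver 1 or 2 (adjusted p 0.0605 to 0.127, range over all settings tried 0.0122 to 0.127). Slc6a9 overlaps Ccdc24 in the annotation, so reads may be shared.

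Slc6a16, an orphan member of the family, was under the filter but had reads in 1 group of its table alone. The pair-fed livers held 25, 52 and 57 reads and the ethanol-fed livers 0, 0 and 0, which makes the pair-fed level at least 43.6-fold higher when the ethanol-fed group is set at a floor of 3 reads over the group. In the authors' deposited table its log2 fold change was -7.71 with q 8.90e-08. It was not in the Mettl3 table, and it overlaps Gm23585. The nearest member, Slc6a21, lies 3965 bases away and had 0 to 6 reads per library.

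The Slc3 heavy chains carry no amino acid themselves and bring Slc7 light chains to the membrane. Slc3a1, the heavy chain rBAT of cystine and cationic amino acid exchange, was higher in both ethanol-fed groups (Entrez 20532; chromosome 17, 85028347 to 85064241). Pair feeding gave 30.7, 23.3 and 32.1 FPKM, ethanol gave 41.2, 41.4 and 57.9, and ethanol with the Mettl3 virus gave 43.9, 39.4 and 62.6. Every ethanol-fed and Mettl3 liver lay above every pair-fed liver. In limma it rose by 0.68 with ethanol (log2, SE 0.17, adjusted p 0.0218) and was higher in Mettl3 than in pair-fed livers, at 0.73 (SE 0.21, adjusted p 0.0177). Without pair-fed liver 2 both calls were lost (adjusted p 0.0786 and 0.0699, the latter in a range of 0.00578 to 0.0699 over all settings tried), and without ethanol-fed liver 3 the ethanol call was lost (adjusted p 0.0514, range over all settings tried 0.0141 to 0.0786). Slc3a1 overlaps Prepl, and its light chain Slc7a9 was not analysed here.

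Slc3a2, the heavy chain 4F2hc (CD98), was at 3.99 to 4.61 FPKM in pair-fed, 3.98 to 6.92 in ethanol-fed and 3.65 to 5.83 in Mettl3 livers, with all groups overlapping. Its log2 fold change with ethanol was 0.30 (SE 0.17, limma adjusted p 0.212). It passed with median-ratio scaling (0.44, adjusted p 0.0452) and without ethanol-fed liver 3 (0.48, adjusted p 0.0272, range over all settings tried 0.0272 to 0.439).

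Of the Slc7 light chains and cationic carriers, 4 of 9 were tested. Slc7a2, the cationic amino acid transporter through which liver takes up arginine and lysine, made up most of the family's level (Entrez 11988; chromosome 8, 40862341 to 40922070). Per library, FPKM was 42.3, 59.6 and 78.4 after pair feeding, 48.8, 25.5 and 44.9 after ethanol, and 31.2, 17.6 and 42.2 in the Mettl3 livers. Ethanol-fed and pair-fed livers overlapped, and the highest Mettl3 liver lay just below the lowest pair-fed liver. Ethanol gave -0.59 in limma (log2, SE 0.29), which did not pass (adjusted p 0.146). Mettl3 livers were lower than pair-fed livers, at -1.003 (SE 0.35, adjusted p 0.0409). This call was lost with median-ratio scaling (-0.78, adjusted p 0.0850), without the filter (adjusted p 0.0574), and without pair-fed liver 2 or 3, ethanol-fed liver 3 or Mettl3 liver 1 or 2 (adjusted p 0.0519 to 0.142, range over all settings tried 0.0145 to 0.142).

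Slc7a8, a light chain for large and small neutral amino acids, fell with ethanol (Entrez 50934; chromosome 14, 54722215 to 54781886). The pair-fed livers had 1.16, 1.38 and 1.40 FPKM, the ethanol-fed livers 0.801, 0.887 and 0.518, and the Mettl3 livers 0.724, 0.661 and 1.15. The pair-fed livers lay above all others, by a narrow margin for Mettl3 liver 3. The log2 fold change with ethanol was -0.42 in limma (SE 0.11, adjusted p 0.0249), and it was lost without ethanol-fed liver 3 (adjusted p 0.0511, range over all settings tried 0.0184 to 0.0511). Slc7a8 passed the filter of the ethanol fit only through its pair-fed livers, so a difference was built into its selection. It was called without the filter as well, and was not tested without any 1 pair-fed liver, where it fell under the filter. Mettl3 livers did not pass against pair-fed livers at -0.33 (SE 0.13, limma adjusted p 0.0553), and passed at the same size in the fit of the 6 libraries of those groups (adjusted p 0.0499) and without ethanol-fed liver 3 (adjusted p 0.0424). It also passed in limma-voom on recovered reads (-0.67, adjusted p 0.0433) and in limma without Mettl3 liver 3 (-0.45, adjusted p 0.0128, range over all settings tried 0.0128 to 0.172). Without Mettl3 liver 3, Slc7a8 again passed the filter only through its pair-fed livers. A difference was thus built into its selection in that fit too.

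The light chains Slc7a5 and Slc7a7, for large neutral and for cationic and neutral amino acids, were at 0.405 to 1.90 and 0.907 to 1.81 FPKM and passed in neither comparison. Slc7a7 overlaps Oxa1l. Slc7a1, the widespread cationic amino acid transporter, was under the filter, with 63, 63 and 43 reads after pair feeding, 138, 270 and 77 after ethanol and 88, 65 and 100 in the Mettl3 livers. All ethanol-fed and Mettl3 livers had more reads than all pair-fed livers. The authors' deposited table gives Slc7a1 a log2 fold change of 1.73 with ethanol (q 0.000274).

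Slc7a11, the cystine and glutamate exchanger, was close to absent, with 3, 6 and 15 reads after pair feeding, 17, 25 and 16 after ethanol and 6, 11 and 5 in the Mettl3 livers. The ethanol-fed livers had more reads than all others, and the authors' deposited table lists q 0.0998 for ethanol. Its promoter is shown because it was the only one of the 32 transporters with a listed promoter to hold more than 1 match to the amino acid response element core within 1 start's 250 bases. Of the 50 listed starts of these 32, 4 held at least 1 such match (in Slc7a11, Slc7a7 and Slc6a21), beside 3.452% of all listed starts. The stretch is chr3:50443614-50443863, minus strand (RefSeq, GRCm38.p6). It lies inside the annotated span of the gene (50364936 to 50499087), which extends further upstream.
Slc7a11: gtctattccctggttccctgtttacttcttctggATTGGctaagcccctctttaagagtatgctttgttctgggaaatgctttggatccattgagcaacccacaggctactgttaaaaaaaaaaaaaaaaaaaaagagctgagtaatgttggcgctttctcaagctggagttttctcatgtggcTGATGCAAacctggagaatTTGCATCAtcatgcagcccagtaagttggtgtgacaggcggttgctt
The matches TGATGCAA and TTGCATCA, 1 on each strand, began 66 and 47 bases before the start. Of the transporters, 10 had no listed promoter: Slc1a5, Slc6a6, Slc6a7, Slc6a8, Slc7a2, Slc7a4, Slc7a5, Slc38a1, Slc38a3 and Slc43a3.

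Slc43a1 facilitates the passage of branched-chain and other large neutral amino acids and had the highest log2 fold change of the tested transporters with ethanol (Entrez 72401; chromosome 2, 84838855 to 84863586). Its levels were 0.694, 0.830 and 0.651 FPKM with pair feeding, 1.77, 2.58 and 3.25 with ethanol, and 2.11, 2.41 and 1.25 with ethanol and the Mettl3 virus. All ethanol-fed and Mettl3 livers lay above all pair-fed livers. It rose by 1.01 on the log2 scale with ethanol in limma (SE 0.16, adjusted p 0.00415) and was higher in Mettl3 than in pair-fed livers, at 0.74 (SE 0.19, adjusted p 0.0109). It passed the filter of the ethanol fit only through the ethanol-fed livers, so a difference was built into its selection, and it was called without the filter as well (the log2(FPKM + 1) scale understates the change of so low a gene, and the authors' deposited table gives 2.02, q 3.06e-10). The ethanol call held without each pair-fed liver and was not tested without any 1 ethanol-fed liver, where the gene fell under the filter. In the fit of all 9 libraries Slc43a1 likewise passed the filter only through the ethanol-fed and Mettl3 livers. A difference from pair-fed livers was thus built into its selection there too. The call in Mettl3 livers held in all 9 fits with a library left out and without the filter. Slc43a1 overlaps D930003E18Rik.

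The promoter of Slc43a1 is shown as that of the tested transporter that rose furthest; it is chr2:84840073-84840322, plus strand, before its single listed start (RefSeq, GRCm38.p6).
Slc43a1: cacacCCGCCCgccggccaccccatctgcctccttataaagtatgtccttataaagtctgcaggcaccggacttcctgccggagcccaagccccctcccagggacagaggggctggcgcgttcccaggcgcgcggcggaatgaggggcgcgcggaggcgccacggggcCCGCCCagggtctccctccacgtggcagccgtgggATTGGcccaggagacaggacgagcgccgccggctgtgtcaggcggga
GC box matches began 245 and 82 bases and a CCAAT match 47 bases before the start, and 70.8% of the stretch was G or C. The stretch lies inside the annotated span of the gene, which begins further upstream at 84838855.

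Slc43a2, a facilitator for the same large neutral amino acids, was low (Entrez 215113; chromosome 11, 75529915 to 75577575). Pair feeding gave 1.33, 1.92 and 1.78 FPKM, ethanol gave 1.26, 1.24 and 0.920, and ethanol with the Mettl3 virus gave 0.953, 0.762 and 1.02. Both ethanol-fed groups lay below all pair-fed livers. Ethanol gave -0.32 in limma (log2, SE 0.12), which did not pass (adjusted p 0.0741), and Mettl3 livers were lower than pair-fed livers, at -0.48 (SE 0.12, adjusted p 0.00946). The latter call held with each library left out.

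Slc43a3, which carries purine nucleobases, was the most abundant Slc43 member (Entrez 58207; chromosome 2, 84936545 to 84958509) and lies 72958 bases from Slc43a1. Per library, FPKM was 12.2, 12.9 and 13.1 after pair feeding, 14.8, 14.5 and 14.1 after ethanol, and 13.1, 11.3 and 12.1 in the Mettl3 livers. The ethanol-fed livers lay above all others. Ethanol gave 0.17 in limma (log2, SE 0.09), which did not pass (adjusted p 0.165) and passed with median-ratio scaling (0.33, adjusted p 0.0212, range over all settings tried 0.0212 to 0.386).

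In the Slc1 family, 3 of 5 members were tested. Slc1a2, the glutamate transporter GLT-1, was the most abundant (Entrez 20511; chromosome 2, 102658239 to 102790784). The pair-fed livers had 16.3, 21.8 and 24.6 FPKM, the ethanol-fed livers 17.3, 9.57 and 12.1, and the Mettl3 livers 9.43, 7.75 and 12.01. Ethanol-fed liver 1 lay among the pair-fed livers, and all Mettl3 livers lay below them. Mettl3 livers were lower than pair-fed livers in limma, at -1.03 (log2, SE 0.23, adjusted p 0.00672), a call that held with each library left out. Ethanol alone gave -0.66 (SE 0.22), which did not pass in limma (adjusted p 0.0541) and passed without pair-fed liver 1 (-0.82, adjusted p 0.0491) or ethanol-fed liver 1 (-0.87, adjusted p 0.00819, range over all settings tried 0.00819 to 0.172).

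Slc1a5, the exchanger of glutamine and other neutral amino acids, rose with ethanol (Entrez 20514; chromosome 7, 16781334 to 16798274). Its levels were 1.49, 1.20 and 1.34 FPKM with pair feeding, 2.58, 2.20 and 1.77 with ethanol, and 1.74, 1.62 and 1.95 with ethanol and the Mettl3 virus. Both ethanol-fed groups lay above all pair-fed livers. The log2 fold change with ethanol was 0.44 in limma (SE 0.12, adjusted p 0.0280), and the call was lost without any 1 of the pair-fed livers or ethanol-fed liver 2 (adjusted p 0.0560 to 0.111, range over all settings tried 0.00699 to 0.111). Mettl3 livers against pair-fed livers gave 0.24 (SE 0.11), which did not pass in limma (adjusted p 0.103) and passed with median-ratio scaling (0.38, adjusted p 0.00796, range over all settings tried 0.00796 to 0.271). Slc1a4, a carrier of alanine, serine and cysteine, was at 0.809 to 3.22 FPKM with all groups overlapping and passed in neither comparison.

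Both Slc36 members were tested. Slc36a4, a carrier of proline and tryptophan, was higher in both ethanol-fed groups (Entrez 234967; chromosome 9, 15709738 to 15742388). Pair feeding gave 2.14, 2.33 and 2.07 FPKM, ethanol gave 3.18, 3.20 and 3.31, and ethanol with the Mettl3 virus gave 3.62, 3.41 and 2.53. Every ethanol-fed and Mettl3 liver lay above every pair-fed liver. In limma it rose by 0.41 with ethanol (log2, SE 0.09, adjusted p 0.0122) and was higher in Mettl3 than in pair-fed livers, at 0.39 (SE 0.11, adjusted p 0.0192). The ethanol call did not pass without pair-fed liver 3 (adjusted p 0.0608, range over all settings tried 0.00643 to 0.0608), and the other without pair-fed liver 1 or 3 or Mettl3 liver 1 or 2 (adjusted p 0.0557 to 0.0771, range over all settings tried 0.00222 to 0.0771).

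Slc36a1, the proton-coupled exporter of lysosomal amino acids, was the more abundant of the pair (Entrez 215335; chromosome 11, 55204322 to 55236330). Per library, FPKM was 5.91, 5.13 and 4.74 after pair feeding, 5.32, 4.57 and 4.38 after ethanol, and 3.85, 3.12 and 4.79 in the Mettl3 livers. All groups overlapped. In limma ethanol gave -0.12 (log2, SE 0.11, adjusted p 0.436), and Mettl3 livers against pair-fed livers gave -0.36 (SE 0.14, adjusted p 0.0573), or -0.48 with adjusted p 0.0127 without Mettl3 liver 3 (range over all settings tried 0.0127 to 0.225).

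The effect of the Mettl3 virus itself was compared among ethanol-fed livers, with 22 transporters tested, 16 under the filter and 4 not in the table. In limma 0 passed in either direction after Benjamini-Hochberg adjustment, and 1 (Slc6a9) had an unadjusted p below 0.05, against 7.45% of the 9706 genes tested. Across all genes 1 was called (Mettl3, higher), 0.0103% of those tested. On simulated data this fit recovered 50.2% of 2-fold changes, so changes of that size could be missed. Limma-voom on recovered reads also called 0 transporters, and 0 of 38 had q below 0.05 in the authors' deposited table, the lowest q being 0.158 for Slc6a9; of all 16470 genes there, 0.103% were higher and 0.51% lower at that threshold. The groups did not overlap for 3 transporters, all lower in Mettl3 livers (Slc6a9, Slc38a7 and Slc43a3), against 6.62% of all genes lower and 6.17% higher (12.8% in either direction).

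Slc6a9 differed by -0.89 on the log2 scale between Mettl3 and ethanol-fed control livers (SE 0.29, limma adjusted p 0.641). Slc38a7 differed by -0.28 (SE 0.13) and Slc43a3 by -0.23 (SE 0.11), each with a limma adjusted p of 0.641. The log2 fold change was negative for 20 of 22 transporters, with a median of -0.23, while it was negative for 58.9% of all genes, with a median of -0.04. Slc3a1 (0.04) and Slc38a10 (0.34) were the exceptions. Leaving out 1 library at a time gave 18 to 20 negative transporters of 21 or 22 tested, where 48.5% to 65.2% of all genes were negative. Their median lay between -0.36 and -0.13, the weakest without Mettl3 liver 2 and the strongest without Mettl3 liver 3. With median-ratio scaling 19 of 22 transporters were negative (median -0.19), against 49.6% of all genes. Without the filter 28 of 38 were negative, against 60.8% of all genes. Transporters of a liver share its library and are not independent, so this direction was not tested.

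The summed transporter level had an SD of 134 FPKM in Mettl3 livers, against 70.9 in pair-fed and 48.2 in ethanol-fed livers (n = 3 each). Over the 22 members with a mean of at least 1 FPKM, Mettl3 liver 3 had the highest value of its group in 15 and Mettl3 liver 2 the lowest in 17. In the ethanol-fed group, liver 1 was highest in 14 and liver 3 lowest in 12.

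**Figure D4:**
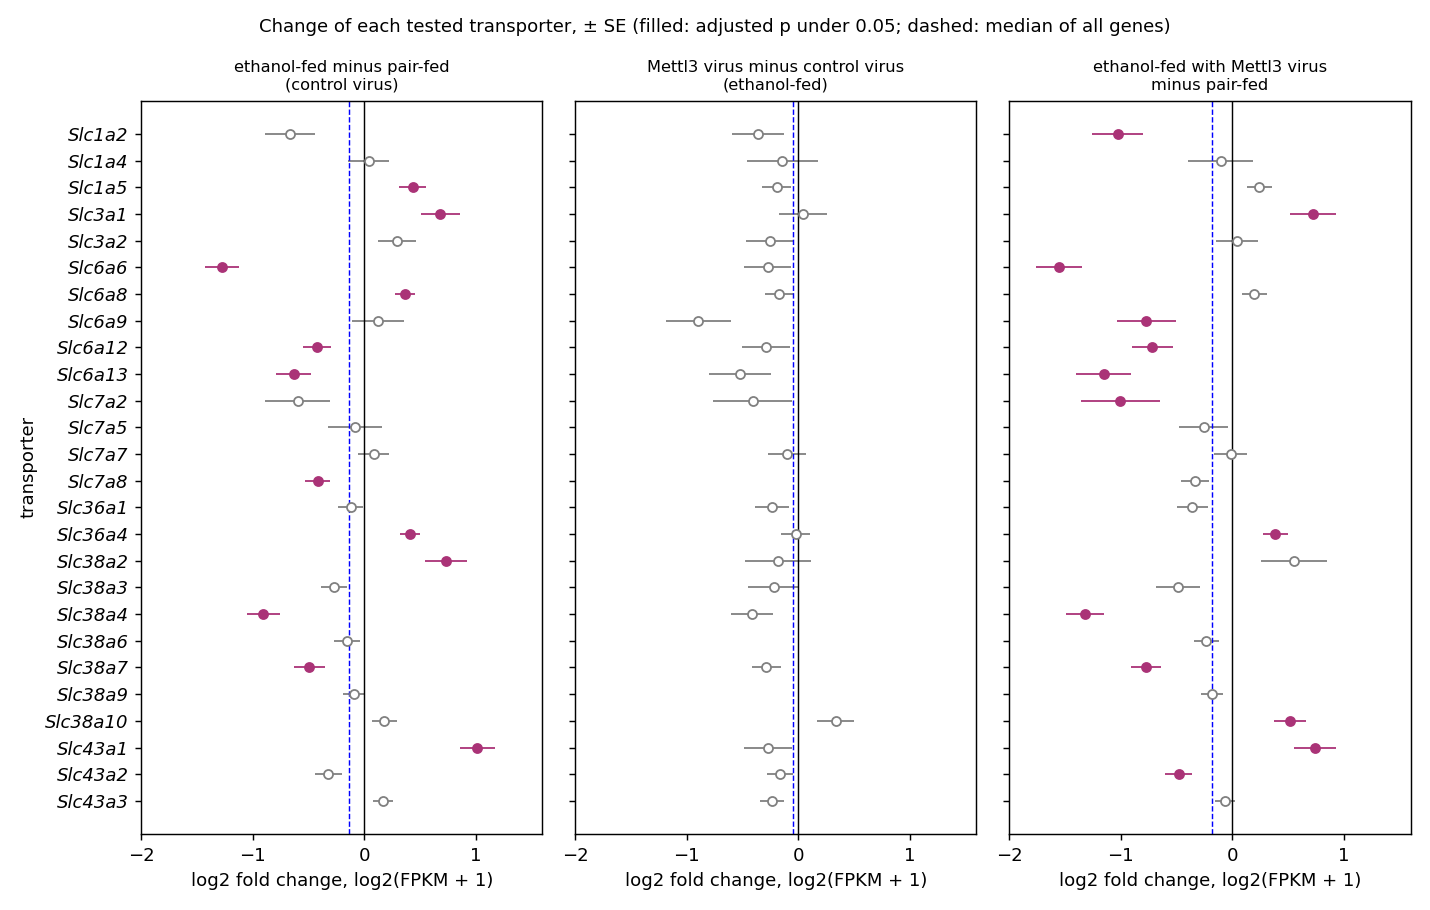
Log2 fold change, on the log2(FPKM + 1) scale, of each tested transporter in the 3 comparisons, with SE bars; filled points passed limma's adjusted p of 0.05, and the dashed line is the median of all genes. Filled points lie on both sides of 0 in the comparisons with pair-fed livers, and none is filled for the Mettl3 virus, where 20 of 22 points lie below 0.

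The remaining 16 transporters were tested in none of the comparisons. Besides Slc6a16, Slc6a21, Slc7a1, Slc7a11 and Slc38a1, they were Slc1a1, Slc1a3, Slc6a4, Slc6a7, Slc6a14, Slc6a19, Slc7a4, Slc7a6, Slc7a15, Slc38a5 and Slc38a11, none of which was above 0.433 FPKM in any library. Slc7a6 had 23, 9 and 17 reads after pair feeding, 17, 44 and 70 after ethanol and 84, 94 and 32 in the Mettl3 livers, and the authors' deposited table gives it 1.67 for ethanol (q 0.0239). Slc7a15 had 0 reads in all pair-fed livers, 0, 4 and 3 in the ethanol-fed livers and 4, 1 and 14 in the Mettl3 livers. Over all 41 transporters of the ethanol table the authors' deposited table lists 11 higher and 5 lower at q below 0.05, or 26.8% and 12.2%, beside 14.0% and 12.6% of all 16842 genes in it. Slc3a2 (q 0.0112), Slc38a10 (q 0.0429) and Slc43a3 (q 0.0176) are among the higher ones there, while limma did not call them. Slc6a12 (q 0.235) and Slc38a7 (q 0.0718), which limma called lower, do not reach that threshold there.

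Genes around these transporters were followed in 3 lists. Of 23 tested other amino acid and peptide transporters, 6 rose and 4 fell with ethanol (median log2 fold change -0.08), or 7 and 4 with median-ratio scaling. In Mettl3 livers against pair-fed livers 4 were higher and 6 lower, or 6 and 5 with median-ratio scaling. For these and the next lists the shares over all genes were 10.0% higher and 26.0% lower with ethanol and 13.9% and 34.9% in Mettl3 livers against pair-fed livers. The mitochondrial aspartate and glutamate exchanger Slc25a13 fell from 57.1 ± 4.48 to 24.0 ± 2.44 FPKM with ethanol (SD, n = 3 each; limma log2 fold change -1.22, adjusted p 0.000861). Its paralogue Slc25a12 rose from 1.62 ± 0.173 to 3.32 ± 0.329 FPKM (0.72, adjusted p 0.00327 in limma). The mitochondrial ornithine carrier Slc25a15 rose from 61.0 ± 2.77 to 104 ± 5.97 FPKM (0.76, adjusted p 0.00183 in limma).

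Genes that the transcription factor ATF4 induces when amino acids are short, or that act upstream of it, rose in 10 and fell in 3 of 22 tested with ethanol (median 0.66), or 11 and 1 with median-ratio scaling. Atf4 rose from 43.6 ± 3.46 to 86.7 ± 6.55 FPKM (SD, n = 3 each; limma log2 fold change 0.97, adjusted p 0.00125). Chac1, a glutathione-degrading target of it, rose from 1.77 ± 0.348 to 17.6 ± 13.3 FPKM (2.53, adjusted p 0.00515 in limma). In Mettl3 livers against pair-fed livers 8 of 24 were higher and 5 lower (median 0.25), or 8 and 4 with median-ratio scaling, and the Mettl3 virus among ethanol-fed livers gave 0 calls of 23 in limma with a median of -0.59.

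Of 31 tested genes of amino acid sensing by mTORC1, 4 rose and 5 fell with ethanol (median -0.12), or 5 and 2 with median-ratio scaling. In Mettl3 livers against pair-fed livers 4 were higher and 12 lower, or 7 and 6 with median-ratio scaling. Sesn1, a sestrin that inhibits mTORC1, fell from 4.16 ± 0.573 to 2.02 ± 0.492 FPKM with ethanol (SD, n = 3 each; limma log2 fold change -0.78, adjusted p 0.00755). Sec13, a GATOR2 and coat protein subunit, rose from 25.1 ± 3.77 to 39.0 ± 3.02 FPKM (0.62, adjusted p 0.00981 in limma). Of the mTORC1 list and the other transporters, 0 were called for the Mettl3 virus among ethanol-fed livers in limma.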

How the data were processed

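The transporter families and the gene lists were chosen with earlier results of these data known; within those families every listed gene was taken, by symbol. The tools named in the submitters' processing notes are fastp, HISAT2 and HTSeq, with build mm10; versions and the strand setting are not given in the sources used here. The authors deposited 2 tables of 6 libraries each with FPKM per library; the 3 ethanol-fed columns are in both and differed by a relative 1.08e-06 at most. Per the file headers, the authors' tables also hold a signal (averaged counts after division by size factors), a linear fold (ratio), its log2, and p-value and q-value columns named after their DESeq2 test.

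Fits used limma 3.58.1 in R 4.3.3 (trend and robust) on log2(FPKM + 1). A gene was tested where 3 or more libraries of the fit reached an FPKM of 1, p-values were adjusted by Benjamini-Hochberg over all genes tested, and the threshold was 0.05. Such log2 fold changes understate those of low genes. The comparisons among ethanol-fed livers and of ethanol with pair feeding each used their own 6 libraries, and Mettl3 against pair-fed livers used all 9. Whole reads were recovered from the signal steps for 100% of values under 500 reads within a tolerance of 0.05 and were used for depth, low genes and limma-voom. Alternatives were another pseudocount (0.1), other filters (none, or FPKM of at least 0.2), median-ratio scaling, limma-voom, plain eBayes, a replicate block, other sample sets and leaving out each library. Fits were tested on simulated data with known changes. Of 2-fold changes, 69.9% were recovered for ethanol, 67.2% for Mettl3 against pair-fed livers and 50.2% for the Mettl3 virus. For 4-fold changes these shares were 92.2%, 91.1% and 86.5%. In the same order, 6.17%, 4.84% and 5.25% of the calls were false. Values per library follow replicate numbers 1 to 3; per-library values are named for members passing any comparison and for the most abundant member of each family, and from the 3 gene lists only called genes among the 4 with the smallest p. Promoters came from RefSeq (GRCm38.p6), matched by Entrez number for 32 of 42 members. Coordinates came from RefSeq on GRCm38 (42 of 42 matched). Other called members also overlap annotated genes: Slc1a2 (Gm13872, LOC115489466), Slc6a6 (Gm44981), Slc6a8 (Gm32261), Slc38a4 (Gm32840), Slc38a10 (Gm11769) and Slc43a2 (Mir3971). Their reads may be shared as well. Tables and figures used Python 3.11.15, numpy 2.4.6, pandas 2.3.3 and matplotlib 3.10.9.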

Additional observations from a re-analysis of the deposited data

How the results depend on the processing

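Among the alternatives tried, each transporter called in a comparison kept its direction in every fit that tested it. Ethanol calls over all genes numbered 1538 to 4743 with 1 library left out (3625 with all), with 2 to 5 transporters higher and 2 to 7 lower; for Mettl3 against pair-fed livers 2 to 5 were higher. The Mettl3 virus gave 1 call over all genes, 0 to 2 with 1 library left out, 0 without the filter and 3 in the fit of all 9 libraries. Deviations from the group mean correlated across genes at r -0.41 to 0.39 for same-numbered libraries of different groups. For differently numbered ones r was -0.51 to 0.58. With 3 libraries per group these values cannot settle whether the replicate numbers pair the samples, and the labels do not say. With a replicate block the Mettl3 virus gave 0 calls and ethanol 2778, with 6 transporters higher and 4 lower. Under the block Slc6a12 (limma adjusted p 0.0656) and Slc38a7 (0.0642) were not called with ethanol, nor Slc6a9 in Mettl3 against pair-fed livers (0.0680); no other transporter call changed.

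Of uncalled transporters, some changed sign, and not all of these stayed near 0. With median-ratio scaling these were Slc36a1 with ethanol (0.0248), Slc36a4 with the Mettl3 virus (0.0212), and Slc1a4 (0.0323), Slc7a7 (0.11) and Slc43a3 (0.15) in Mettl3 against pair-fed livers. With 1 library left out, ethanol gave Slc1a4 -0.0720 to 0.22, Slc6a9 -0.15 to 0.30, Slc7a5 -0.14 to 0.16 and Slc7a7 -0.0273 to 0.23. The Mettl3 virus gave Slc1a4 -0.49 to 0.12, Slc3a1 -0.15 to 0.20, Slc7a7 -0.24 to 0.0152, Slc36a4 -0.0995 to 0.0941 and Slc38a2 -0.44 to 0.18. Mettl3 against pair-fed livers gave Slc1a4 -0.45 to 0.16, Slc3a2 -0.12 to 0.16 and Slc7a7 -0.0893 to 0.10. The cause was not tested. The FPKM filter left 16 members untested; the fewer reads a member had, the wider its counting error.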
